A study of Mus musculus with 54 samples.

Results

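Of the 113737 regions in the merged ATAC-seq peak list, 4332 on the 19 autosomes lay at the transcription start sites (TSSs) of non-coding genes only. A peak was counted when its centre was within 1 kb of a TSS of a GENCODE M21 gene not typed as protein_coding, and farther than 1 kb from every TSS of a protein-coding gene. They made up 3.88% of the 111741 autosomal peaks, beside 18977 peaks at coding promoters (centre within 1 kb of a protein-coding TSS) and 88432 distal peaks (centre farther than 1 kb from any TSS). ATAC-seq marks open chromatin by the insertion of Tn5 transposase.

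The labels describe 54 samples in 24 groups of ZHBTc4 mouse ES cells, in which doxycycline (dox) shuts off the endogenous Pou5f1 gene, the source of OCT4. All cells carried a lentiviral mCherry-OCT4-AID fusion under a constitutive promoter, which indole-3-acetic acid (IAA) degrades, together with the Tir1 receptor and the cell cycle reporter YPet-MD, and all had received 1 µg/ml dox. In 1 set, cells had 26 hr of dox with or without 500 nM IAA for 2 hr and were sorted into EG1, LG1, S and SG2 phases. In the washout set, cells had 31 hr of dox, with or without 2.5 hr of IAA followed by 4.5 hr of washout, and were sorted into the same phases, and in the time course unsorted cells had 34 hr of dox and IAA for 0, 30 min or 1, 2, 3, 4, 6 or 10 hr. The values below came from 1 list of regions merged over these experiments, which holds no value per sample, so neither OCT4 loss nor cell cycle phase could be compared, and the depth of the libraries is unknown.

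Non-coding genes fall into several kinds. Long non-coding RNAs are transcribed by RNA polymerase II like mRNAs, either between genes (lincRNA) or across a gene on the other strand (antisense). MicroRNAs (miRNAs) and small nucleolar RNAs (snoRNAs) are cut from longer host transcripts, so the annotated start of the small RNA is a processing site and not the place where transcription begins. Processed pseudogenes are copies of mRNAs inserted back into the genome, usually without the promoter of the parent gene. TEC is a GENCODE label for transcripts still awaiting experimental support.

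Long non-coding RNA genes were nearest to 2077 of the 4332 peaks (47.9%), pseudogenes to 1233 (28.5%), small RNA genes to 552 (12.7%) and TEC genes to 338 (7.80%). The largest single types were lincRNA with 1269 peaks, processed_pseudogene with 956 and antisense with 531. These are counts of nearest genes, in a list with 4.54 peaks per 100 kb over all autosomes. How many peaks would lie within 1 kb of such starts by position alone was not tested. The remaining 132 peaks (3.05%) lay at immunoglobulin or T cell receptor gene segments. Most of these segments encode parts of receptor proteins although GENCODE does not type them as protein_coding, so the name non-coding did not hold for those. The exceptions were pseudogene segments, most of them typed IG_V_pseudogene (38 peaks). The 4332 peaks belonged to 3924 nearest genes, of which 3559 had 1 peak, and 252 peaks were within 1 kb of TSSs of more than 1 non-coding gene.

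**Figure D1:**
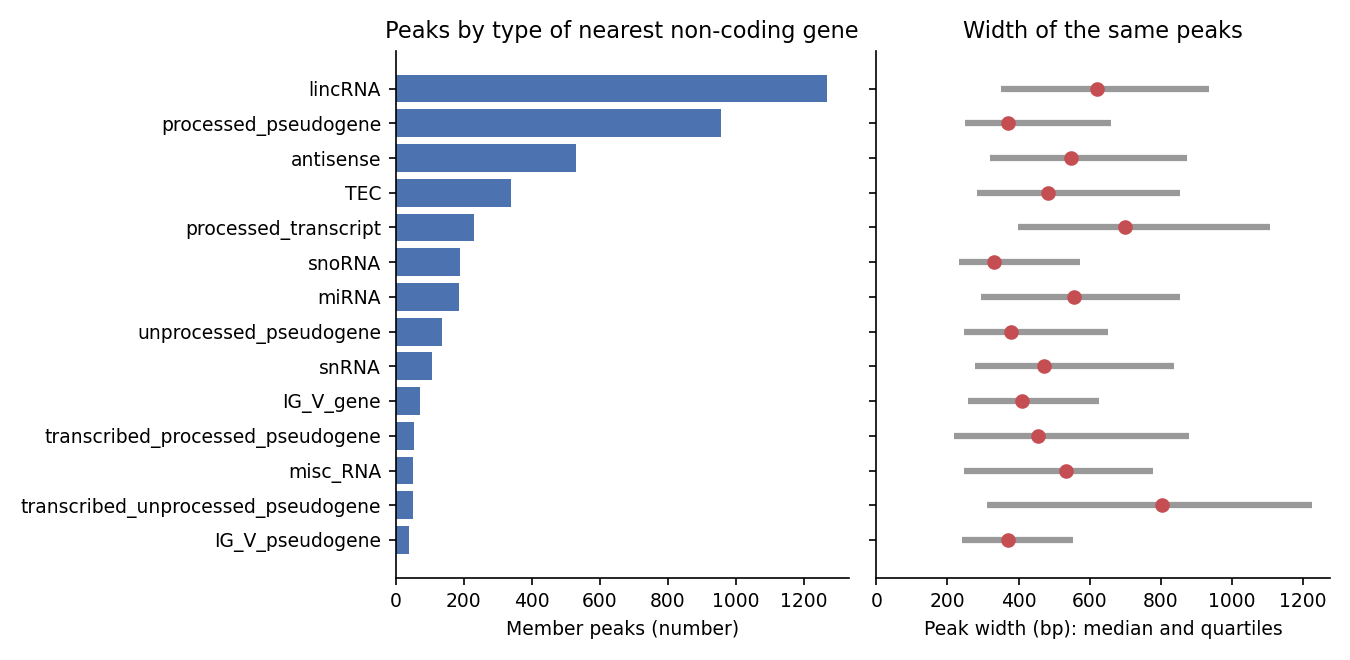
Left, number of peaks (bars) by GENCODE type of the nearest non-coding gene, for the 14 types with most peaks. Right, median width in bp (points) and quartiles (lines) of the same peaks. LincRNA genes had the most peaks (1269), and peaks at processed pseudogenes (median 371.5 bp) were narrower than peaks at lincRNAs (620 bp).

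Mature miRNAs of clusters with a member within 1 kb are shown here for their seeds. Peaks at miRNA genes included clusters known for their expression in ES cells. At the Mir290 cluster, 1 peak of 2592 bp at chr7:3217543-3220134 (GRCm38), nearest to Mir291a, had its centre within 1 kb of the start of 6 annotated hairpins (Mir290a, Mir290b, Mir291a, Mir291b, Mir292 and Mir292b), while Mir293, Mir294 and Mir295 further along had no peak centre within 1 kb. At the Mir302 and Mir367 cluster, 1 peak of 273 bp nearest to Mir302b, at chr3:127545152-127545424 lay within 1 kb of all 5 hairpins. In the Mir17 cluster, which is transcribed from Mir17hg, a peak of 873 bp covered the start of Mir17hg and another of 229 bp at chr14:115043734-115043962 covered the start of Mir18. Mature sequences from RefSeq (GRCm38.p6) are printed 5′ to 3′ with the seed (bases 2 to 8), which sets target choice, in capitals. They are grouped so that miRNAs with the same seed stand next to each other.
miR-291a-3p: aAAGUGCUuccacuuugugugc
miR-302b-3p: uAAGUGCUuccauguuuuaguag
miR-302d-3p: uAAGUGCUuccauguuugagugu
miR-367-3p: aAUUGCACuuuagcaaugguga
miR-92a-3p: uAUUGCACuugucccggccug
miR-17-5p: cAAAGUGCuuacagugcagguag
miR-18a-5p: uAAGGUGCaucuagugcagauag
let-7i-5p: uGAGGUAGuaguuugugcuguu
The first 3 of these, from the Mir290 and Mir302 clusters on different chromosomes, shared the seed AAGUGCU, and miR-367-3p and miR-92a-3p shared AUUGCAC. Other miRNAs of the Mir290 and Mir302 clusters, not printed, had other seeds, such as AAGUGCC in miR-290a-3p, AAGUGCA in miR-291b-3p and AGUGCUU in miR-302c-3p. The mature sequences of miR-291a-3p, miR-302b-3p, miR-18a-5p and let-7i-5p lay within a member peak, whereas those of miR-302d-3p, miR-367-3p, miR-92a-3p and miR-17-5p lay outside it, at genes with a peak centre within 1 kb. Mature sequences were found for 25 of 29 miRNA genes looked up.

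Windows from the centres of 4 member peaks show the range of sequence. Terc encodes the RNA template of telomerase, Snhg8 is a snoRNA host gene, Lncenc1 is a long non-coding RNA gene active in naive ES cells, and Ighv5-17 is a variable (V) segment of the immunoglobulin heavy chain. The first 3 are 200 bases long, at chr3:96414533-96414732 (minus strand), chr3:123508141-123508340 (minus strand) and chr13:97482775-97482974 (plus strand), with CpG dinucleotides in capitals. The fourth is 150 bases at chr12:113859055-113859204 (minus strand), with the letters CACAGTG, the heptamer of the recombination signal, in capitals.
Terc: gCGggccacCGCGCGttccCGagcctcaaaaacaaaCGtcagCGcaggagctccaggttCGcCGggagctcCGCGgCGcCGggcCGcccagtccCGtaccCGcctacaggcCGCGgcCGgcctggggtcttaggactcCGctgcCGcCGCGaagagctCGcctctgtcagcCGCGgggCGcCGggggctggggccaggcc
Snhg8: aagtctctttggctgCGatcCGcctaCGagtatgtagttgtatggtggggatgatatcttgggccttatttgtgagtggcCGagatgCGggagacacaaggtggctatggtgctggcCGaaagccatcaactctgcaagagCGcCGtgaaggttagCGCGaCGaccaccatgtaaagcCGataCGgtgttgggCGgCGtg
Lncenc1: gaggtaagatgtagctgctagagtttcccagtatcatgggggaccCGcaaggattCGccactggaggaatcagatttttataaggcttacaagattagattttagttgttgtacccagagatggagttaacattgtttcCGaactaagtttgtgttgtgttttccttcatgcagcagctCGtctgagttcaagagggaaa
Ighv5-17: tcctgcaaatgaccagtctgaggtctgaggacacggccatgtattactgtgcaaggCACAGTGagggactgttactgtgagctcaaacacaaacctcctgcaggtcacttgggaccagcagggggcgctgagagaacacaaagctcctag
The window at Terc had a GC content of 76.0% and 28 CpGs, that at Snhg8 55.5% and 15 CpGs, and that at Lncenc1 43.0% and 4 CpGs.

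The peaks at non-coding TSSs were intermediate between coding promoter peaks and distal peaks in width, GC content, CpG-rich share and repeat share. Chromosomes were used as the units of the tests, with two-sided sign-flip permutation of the differences over 19 autosomes and adjustment over 11 tests. With 100000 resamples, a floor of 2e-05 was set for the raw p. Median width per chromosome was 516 ± 53.5 bp (SD, n = 19 autosomes), against 1071 ± 38.9 bp at coding promoters and 383 ± 24.3 bp at distal peaks. The peaks were narrower than coding promoter peaks on 19 of 19 autosomes and wider than distal peaks on 19 of 19 (permutation, adjusted p = 2.44e-05 for both).

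GC content of the central 300 bases averaged 51.7% ± 1.20 over autosomes, against 62.4% ± 0.806 at coding promoters and 48.3% ± 1.04 at distal peaks. A window was called CpG-rich when its GC content was at least 50% and its ratio of observed to expected CpG at least 0.6. By this measure 15.3% ± 4.11 of the peaks were CpG-rich, against 60.9% ± 3.58 of coding promoter peaks and 3.61% ± 0.874 of distal peaks. Soft-masked repeats covered 16.5% ± 1.66 of their bases, more than at coding promoters (9.07% ± 0.686) and less than at distal peaks (22.8% ± 2.15). Each of these differences had the same direction on all 19 autosomes (permutation, adjusted p = 2.44e-05 for each).

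**Figure D2:**
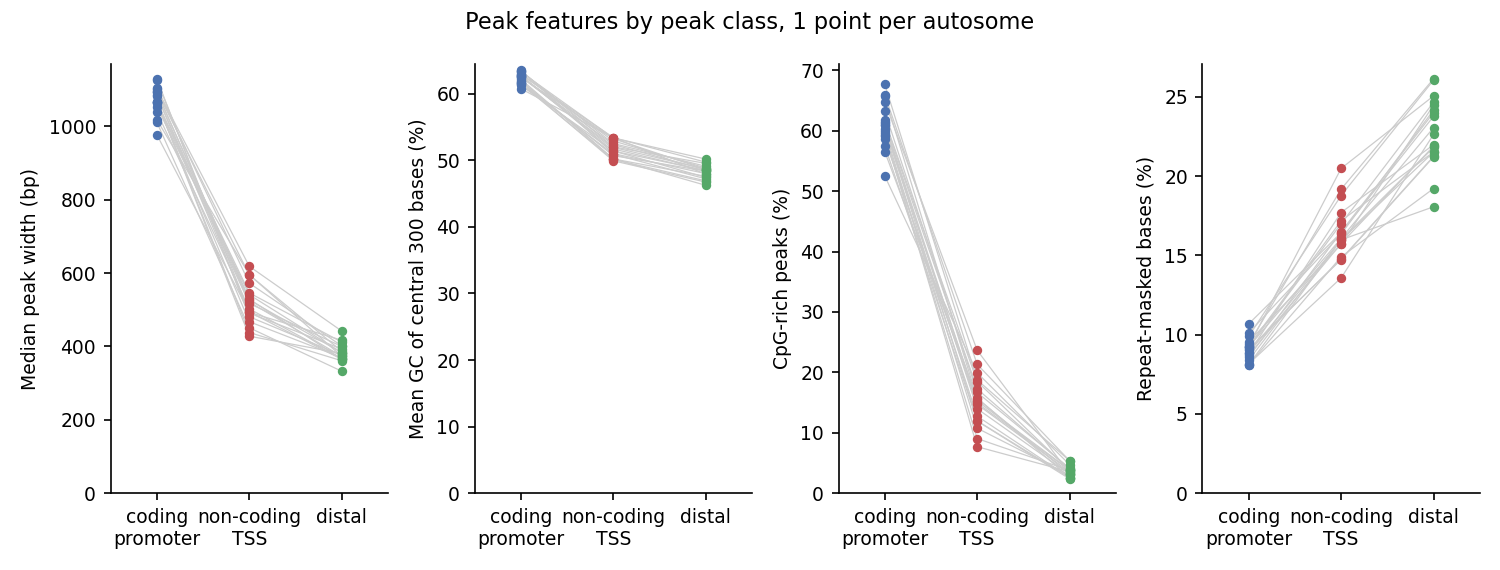
Median width (bp), mean GC content (%), CpG-rich share (%) and repeat-masked share (%) of coding promoter peaks, peaks at non-coding TSSs and distal peaks. Each point is 1 autosome and grey lines join the same autosome. The middle group lay between the others on all 19 autosomes, with a median width averaging 516 bp against 1071 and 383 bp.

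Position on the TSS is described with no test, since distance to a TSS chose both classes and a wider peak covers a TSS more often. A TSS base lay inside 47.0% ± 4.11 of them per autosome, against 80.9% ± 1.80 of coding promoter peaks, which were also wider. Over all 4332 peaks the median distance from centre to TSS was 309 bp, beside 126 bp for the 18977 coding promoter peaks. Of the 4332, 897 (20.7%) were within 100 bp and 2040 (47.1%) had their centre upstream. The median distance to the nearest other peak was 4763 ± 942 bp, lower than at coding promoters (6055 ± 412 bp, adjusted p = 4.40e-05) and at distal peaks (5294 ± 434 bp, adjusted p = 0.00508; both by permutation). The difference from coding promoters turned to 377 bp higher when means replaced medians (permutation, adjusted p = 0.450), and the difference from distal peaks was 8.16 bp higher when only the 3753 peaks farther than 5 kb from coding TSSs were kept (permutation, adjusted p = 0.965).

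The distance limit cut through a continuous range. The 3 peaks just inside it, at the processed pseudogenes Gm5491 and AC166350.1 and the miRNA gene Gm22406, had centres 1000 bp from the TSS and widths of 280, 171 and 536 bp. The 3 just outside, at Gm48121, Mir7023 and Zp4-ps, lay 1001, 1001 and 1002 bp away with widths of 222, 198 and 220 bp. Coding TSSs were usually far off, with a median distance of 27123.5 bp, and 206 peaks (4.76%) lay within 2 kb of one.

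Position around the TSS is given by kind of gene as a description, with no test. The median distance was 206 bp at processed_transcript genes, 243 bp at lincRNA genes and 267 bp at antisense genes, and 367 bp at processed pseudogenes, 360 bp at snoRNA genes and 398.5 bp at TEC genes. A TSS was covered by 63.2%, 56.9% and 54.2% of peaks at the first 3 of these types, and by 34.5%, 33.3% and 40.5% at the others. Peaks at snoRNA genes were upstream in 60 of 189 cases (31.7%), whereas lincRNA peaks were upstream in 634 of 1269 (50.0%). Most members lay outside coding genes. The centre was outside every protein-coding gene for 3230 peaks (74.6%), but inside one on the opposite strand for 357 of 531 antisense peaks, and inside one on the same strand for 72 of 186 miRNA peaks and 114 of 338 TEC peaks.

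**Figure D3:**
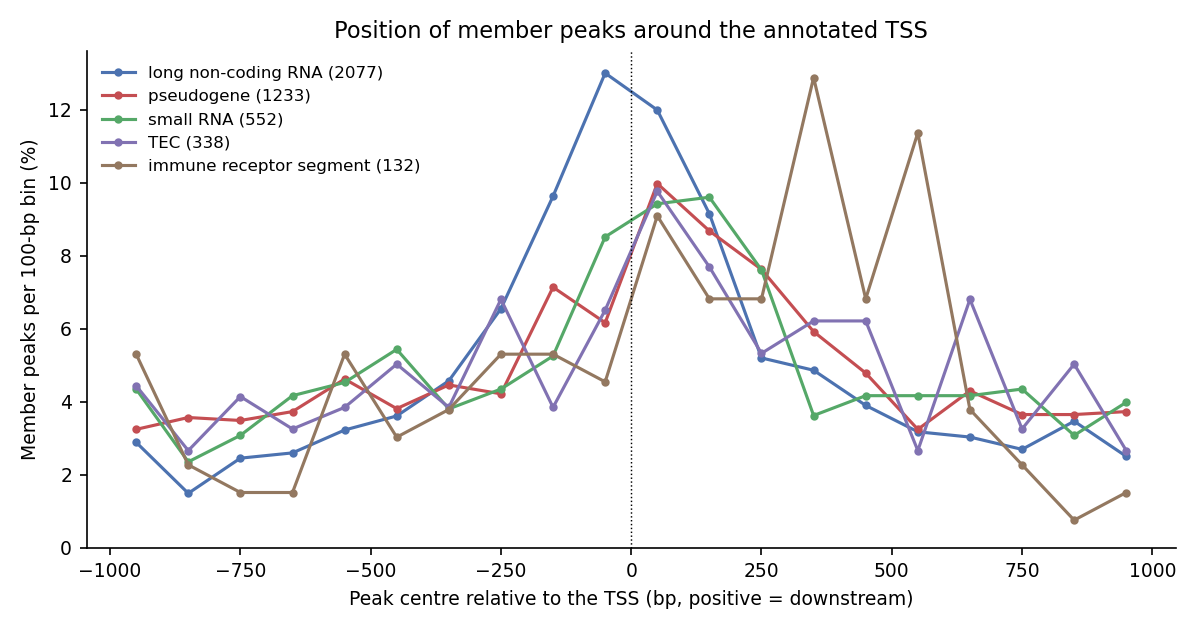
Share of peaks (%) per 100-bp bin of the distance from the annotated TSS to the peak centre, in bp, positive values being downstream on the strand of the gene. Lines are the 5 kinds of gene, with the number of peaks in parentheses. Peaks at long non-coding RNA genes concentrated around the TSS (median distance 244 bp), whereas those at immune receptor segments lay mostly downstream.

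LincRNA peaks were wider than the other members, and processed pseudogene peaks narrower. Median width per autosome was 624 ± 64.3 bp at lincRNA genes against 457 ± 50.3 bp for the rest (higher on 19 of 19 autosomes, permutation, adjusted p = 0.000120 over 12 tests). At processed pseudogenes it was 388 ± 58.2 bp against 557 ± 60.9 bp (higher on 2 of 19 autosomes, permutation, adjusted p = 0.000120). Repeats covered 19.4% ± 2.42 of processed pseudogene peaks against 15.7% ± 1.76 of other members (higher on 18 of 19, permutation, adjusted p = 0.000120), a difference that fell to 1.29 percentage points with a TSS distance of 500 bp (permutation, adjusted p = 0.254). LincRNA peaks held fewer repeats, 15.2% ± 2.63 against 17.1% ± 1.92 (permutation, adjusted p = 0.0320), a call lost with a TSS distance of 500 bp, with the 5′ end of each gene only and with annotation levels 1 and 2 only (permutation, adjusted p between 0.0874 and 0.270). Antisense peaks held fewer as well, 12.4% ± 3.92 against 17.01% ± 1.69 (higher on 2 of 19, permutation, adjusted p = 0.000630).

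The CpG-rich share passed the test for none of these types with the settings above, but did so under some alternatives. It was 14.4% ± 4.94 at lincRNA genes, 17.8% ± 6.88 at antisense genes, 16.6% ± 7.51 at processed pseudogenes and 12.5% ± 22.0 at TEC genes (adjusted p between 0.233 and 0.676, permutation). Autosomes counted alike, with no minimum number of peaks per type. Over all 338 TEC peaks 31 were CpG-rich (9.17%), and the TEC share was above that of other members on 4 of 19 autosomes. With the 5′ end of each gene as the only TSS, antisense peaks were CpG-rich more often than other members, by 12.9 percentage points (permutation, adjusted p = 0.000140), and lincRNA peaks less often (difference -3.99 points, permutation, adjusted p = 0.0268). TEC peaks were CpG-rich less often with a TSS distance of 2000 bp (difference -3.80 points, permutation, adjusted p = 0.0126) and beyond 5 kb from coding TSSs (difference -7.74 points, permutation, adjusted p = 0.00120). In the types not tested, the share over all peaks was 29.0% at the 231 processed_transcript peaks and 39.2% at the 51 transcribed_unprocessed_pseudogene peaks. At snoRNA genes 4 of 189 peaks (2.12%) were CpG-rich.

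The wide members were led by the peak nearest to Gm26917, a lincRNA gene on chromosome 17. It measured 5681 bp, at chr17:39843066-39848746, and was the 1 member above 5 kb, a size that the study's methods describe as removed. Its central window had a GC content of 72.0%, and the mapping of reads there was not tested. The next lincRNA peak, at Gm16499, was 3461 bp wide. The widest processed pseudogene peaks were at Gm13158 (4716 bp, with repeats over 44.7% of its bases) and Gm11620 (2516 bp). Grin1os (3198 bp) and Gm48159 (2163 bp) led the antisense genes, and Gm37811 (2524 bp) and A730013G03Rik (2369 bp) the TEC genes. Among processed_transcript genes the widest were 9930014A18Rik (2748 bp) and Snhg8 (2173 bp), and among snoRNA genes Gm25744 (2356 bp) and Snora9 (1916 bp). In all, 38 members were wider than 2 kb and 180 narrower than 200 bp.

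How often a non-coding gene had a peak at all depended on its type. Of 26312 stand-alone non-coding genes, those with every TSS farther than 2 kb from every coding TSS, 3916 had a peak centre within 1 kb of a TSS, or 14.9%, against 15046 of 20807 protein-coding genes, or 72.3%. Against all other stand-alone non-coding genes, the share was higher for processed_transcript (39.6% ± 13.1 per autosome against 14.7% ± 2.34) and lincRNA genes (24.8% ± 5.02 against 12.9% ± 2.57), each on 19 of 19 autosomes (permutation, adjusted p = 5.00e-05 over 10 tests). For antisense genes it was 23.2% ± 6.30 against 14.6% ± 2.57 (higher on 17 of 19, permutation, adjusted p = 6.67e-05).

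The share was lower for processed pseudogenes, at 10.5% ± 2.28 against 17.4% ± 3.11 (higher on 0 of 19 autosomes, permutation, adjusted p = 5.00e-05). Unprocessed pseudogenes (8.14% ± 3.95), snRNA genes (8.61% ± 4.84) and TEC genes (10.6% ± 3.73) also had lower shares than the rest, with adjusted p of 5.00e-05, 6.67e-05 and 0.000200 by permutation. No difference was detected for miRNA genes (13.5% ± 5.43 against 15.2% ± 2.71, adjusted p = 0.296), snoRNA genes (17.7% ± 8.34 against 15.0% ± 2.40, adjusted p = 0.196) or misc_RNA genes (13.5% ± 7.50 against 15.1% ± 2.47, adjusted p = 0.305; all by permutation). With the 5′ end of each gene as its only TSS, the types that passed the test kept their direction and their call.

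**Figure D4:**
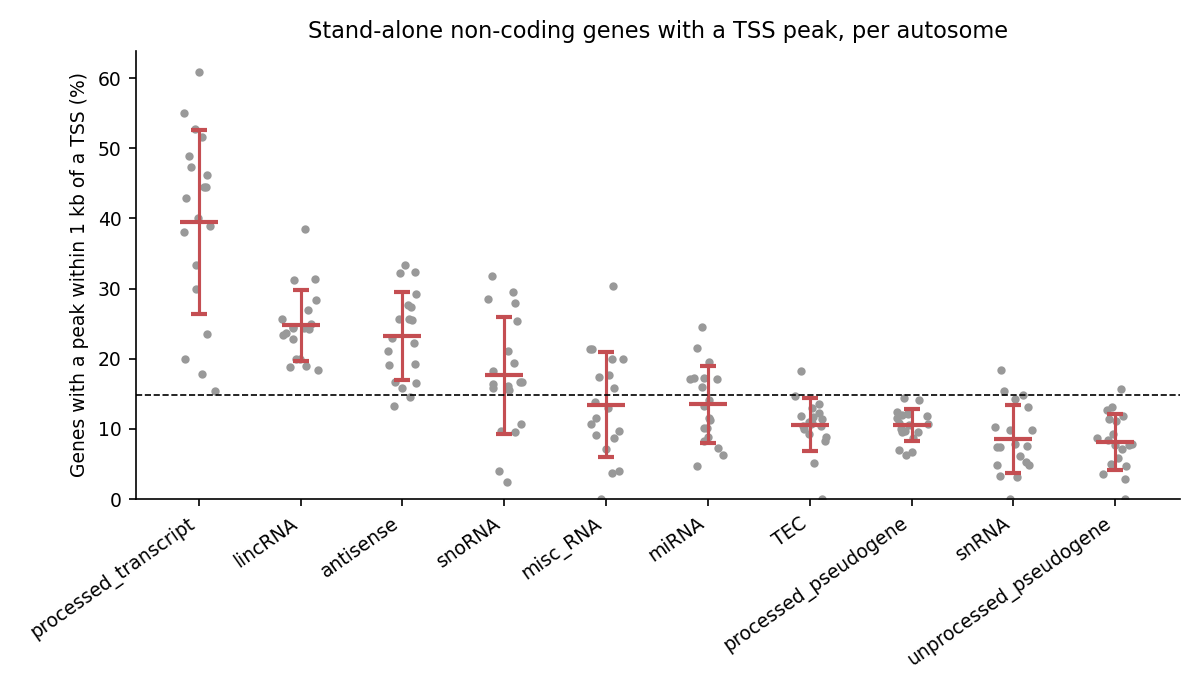
Share of stand-alone non-coding genes with a peak centre within 1 kb of a TSS (%), by gene type. Grey points are autosomes with at least 5 genes of the type, red lines the mean ± SD over autosomes, and the dashed line the 14.9% of all stand-alone non-coding genes. Processed_transcript, lincRNA and antisense genes lay above the line on average, and both kinds of pseudogene, snRNA and TEC genes below it.

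The share with a peak also went with the CpG content at the gene's own 5′ end. Among stand-alone genes with a CpG-rich start (300 bases around the 5′ end), 653 of 1305 had a peak (50.0%), against 3263 of 25007 of the others (13.0%), and it was higher on 19 of 19 autosomes (49.4% ± 9.73 against 13.3% ± 2.13; chosen after seeing the data, no test). For processed_transcript genes the numbers were 50 of 55 against 113 of 337, for lincRNA genes 157 of 214 against 1002 of 4513, for miRNA genes 38 of 58 against 166 of 1538, and for processed pseudogenes 208 of 626 against 700 of 8007. Processed pseudogenes named for ribosomal proteins had a peak in 27 of 232 cases (11.6%, Wilson 95% interval 8.12 to 16.4, counting error only) and the others in 881 of 8401 (10.5%, interval 9.85 to 11.2), so the intervals overlapped.

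Genes with known roles were counted as having a peak when its centre lay within 1 kb of a TSS, which held for 6375 of all 30422 autosomal non-coding genes, or 20.96%, stand-alone or not. The lists were chosen with results of these data known, so their counts are descriptions. All 17 annotated snoRNA host genes had a peak, 10 of them a member and 7 a peak that also lay at a coding TSS. Snhg6 had a member of 2234 bp and Snhg8 one of 2173 bp, and Snhg12 had 2 members of 1098 and 900 bp, of which the wider was CpG-rich. All 13 broadly expressed non-coding genes found in the annotation had a peak too, 10 of them a member. The peak at Neat1, which builds nuclear paraspeckles, was 2275 bp wide and covered a TSS, and Terc had a peak of 645 bp with a GC content of 71.7% in its central window. Malat1 was the nearest gene of 3 members of 188, 265 and 762 bp, of which the last was CpG-rich. Pvt1, next to Myc on chromosome 15, was nearest to 4 members of 1205, 622, 911 and 271 bp, and 3110039I08Rik, Gm26885 and 2310008N11Rik also had 4 each, the highest number.

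Of 29 long non-coding RNA genes picked for their link to ES cells, most of them Platr genes (named for pluripotency-associated transcripts), 12 had a member, 2 a peak at a coding TSS and 15 no peak centre within 1 kb. The widest members were at Platr22 (1851 bp), Platr11 (1650 bp) and Platr19 (1620 bp), and none of the 3 was CpG-rich. Lncenc1 was nearest to members of 746 and 830 bp, the wider of which lay over its TSS and was 48.7% repeat. Repeats covered 93.8% and 74.4% of the 2 members at Platr1. Sox2ot, which spans Sox2, had no peak centre within 1 kb of its 18 TSSs.

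Among 20 long non-coding RNA genes of development, 13 had a member, 4 a peak at a coding TSS and 3 none (Hotair, Halr1 and Dlx1as). These members included narrow ones, such as that of 233 bp at Fendrr. Among 9 imprinted non-coding genes, which are expressed from the copy of 1 parent, Kcnq1ot1 (1297 bp, covering its TSS and CpG-rich), Nespas and Snhg14 had members. H19, Meg3, Rian, Mirg, Airn and Peg13 had no peak centre within 1 kb of any of their TSSs.

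Of 38 miRNA and miRNA host genes, 22 had a member within 1 kb, 1 a peak at a coding TSS and 15 none. Clustered genes shared peaks, so the 22 genes had 13 different members between them. Of 10 let-7 genes, which rise as ES cells differentiate, Mirlet7i had a member (2038 bp, CpG-rich) and the other 9 had no peak centre within 1 kb. Mir9-1, a gene of the nervous system, had a member of 1295 bp covering its TSS. The 12 miRNA genes whose starts lay nearest to the centre of a member, 0 to 32 bp away, included Mir184, a gene of the eye (184 bp), Mir135b (304 bp), Mir202 (283 bp) and Mir615 in the Hoxc cluster, where the peak was 2001 bp wide and CpG-rich. Mir3086 (1036 bp), Mir6387 (1063 bp) and Mir6961 (1075 bp) lay under wider peaks that were not CpG-rich. The others were Mir18, Gm44341, Gm23450, Gm23935 and Gm27731, the last with repeats over 100% of its 198 bp. The members at miRNA genes thus ranged from peaks narrower than most distal peaks to peaks wider than most coding promoter peaks.

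Motif matches were counted in the central 300 bases. Of 12 motifs, 8 differed past the threshold from coding promoter peaks and 5 from distal peaks. The motifs were matched on both strands without mismatches, apart from OCT4::SOX2 (up to 2 mismatches) and CTCF (up to 1), and p-values were adjusted over 24 tests. The GC box (GGGGCGGGG) was in 3.59% ± 1.19 of windows per autosome, against 12.8% ± 1.48 at coding promoters and 1.92% ± 0.391 at distal peaks (permutation, adjusted p = 0.000120 for both). The cAMP response element CRE (TGACGTCA) was in 0.682% ± 0.383, against 1.53% ± 0.516 (adjusted p = 0.000120) and 0.293% ± 0.0925 (adjusted p = 0.00168; both by permutation). NRF1 (GCATGCGC), ETS (ACCGGAAGT) and YY1 (AAGATGGCG) matches, all typical of promoters, were less frequent than at coding promoters, at 0.895% against 2.48%, 0.336% against 1.03% and 0.787% against 2.03% (permutation, adjusted p of 0.000200, 0.000390 and 0.000144). ETS matches were more frequent than at distal peaks (0.132% ± 0.0485, permutation, adjusted p = 0.0388), a call lost with a TSS distance of 2000 bp (permutation, adjusted p = 0.0784).

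CTCF, the insulator protein that anchors chromatin loops, had matches in 10.9% ± 2.26 of the windows, against 6.78% ± 0.642 at coding promoters (higher on 18 of 19 autosomes, permutation, adjusted p = 0.000120) and 12.9% ± 1.92 at distal peaks (higher on 4 of 19, permutation, adjusted p = 0.00406). With 1 more mismatch allowed, the difference from coding promoters turned to 1.85 percentage points lower (member minus coding -1.85, permutation, adjusted p = 0.0388) and that from distal peaks to 0.925 higher (permutation, adjusted p = 0.328). With a 500-base window the difference from distal peaks was -1.40 percentage points and missed the threshold (permutation, adjusted p = 0.0545). ESRRB, a nuclear receptor of the naive state, matched (TCAAGGTCA) in 1.52% ± 0.805 of windows, above coding promoters (0.619% ± 0.422, permutation, adjusted p = 0.000343) and below distal peaks (2.13% ± 0.297, permutation, adjusted p = 0.00892). The comparison with distal peaks missed the threshold with a TSS distance of 2000 bp, among long non-coding RNA genes alone and farther than 5 kb from coding TSSs (permutation, adjusted p between 0.0514 and 0.199).

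The octamer bound by OCT4 (ATTTGCAT) was in 1.85% ± 1.34 of the windows, against 0.843% ± 0.317 at coding promoters (higher on 17 of 19 autosomes, permutation, adjusted p = 0.00147) and 2.04% ± 0.217 at distal peaks (permutation, adjusted p = 0.605). By this matching the composite OCT4::SOX2 motif was rare in every class, with 18 matches among 4332 members, 16 of them with 2 mismatches. Its share was 0.340% ± 0.471 per autosome against 0.140% ± 0.122 at coding promoters and 0.584% ± 0.105 at distal peaks (permutation, adjusted p = 0.136 and 0.0674), and 1 match had no mismatch. The study searched for the motif with another method (HOMER), so these shares cannot be set beside its motif frequencies. With the 5′ end of each gene as its only TSS, both differences passed the threshold (permutation, adjusted p = 0.0338 for both). SOX (CCATTGTT), KLF4 (GGGTGTGGC) and NFY (CCAATCA) shares, at 1.27%, 1.40% and 5.12%, did not differ past the threshold from either class with these settings (permutation, adjusted p between 0.106 and 0.487). SOX matches were more frequent than at coding promoters with a TSS distance of 2000 bp, with the 5′ end of each gene only and with a 500-base window (permutation, adjusted p between 0.00122 and 0.0142). KLF4 matches were less frequent than at distal peaks with the 5′ end only and with a 500-base window (permutation, adjusted p = 0.0142 and 0.0149) and more frequent than at coding promoters among long non-coding RNA genes (permutation, adjusted p = 0.0415), and NFY matches were less frequent than at coding promoters with the 5′ end only (permutation, adjusted p = 0.0296).

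**Figure D5:**
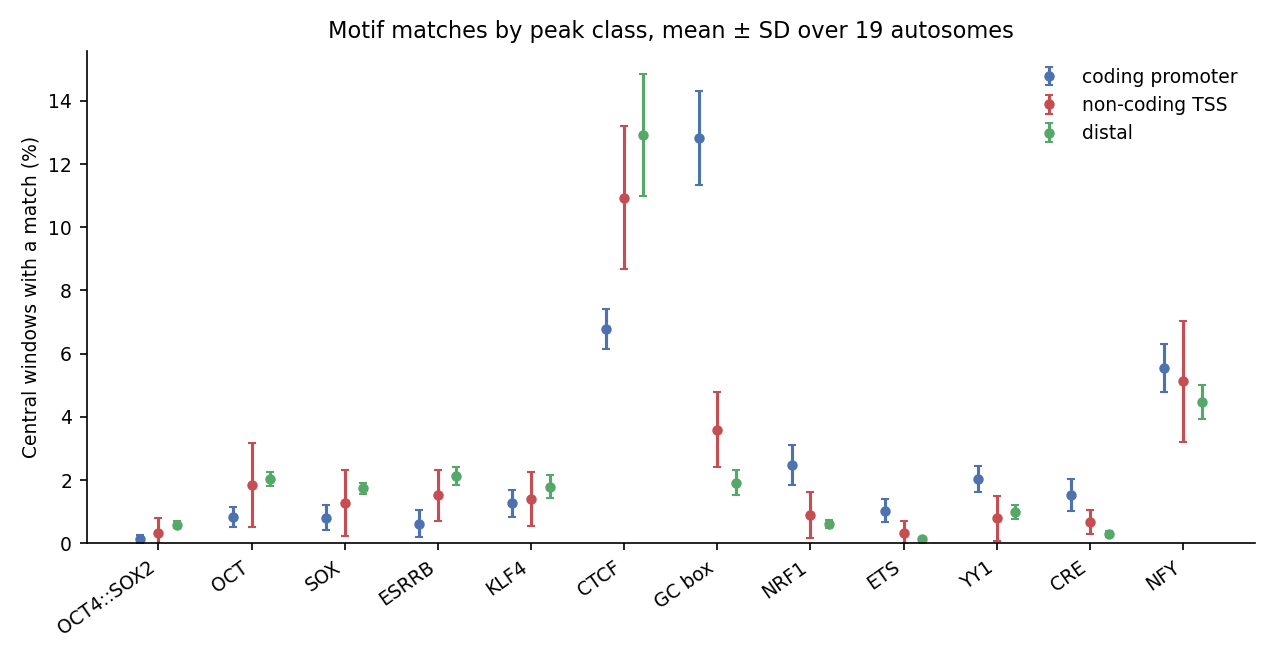
Share of central 300-base windows with a match (%), for 12 motifs in coding promoter peaks, peaks at non-coding TSSs and distal peaks. Points are means and bars SDs over 19 autosomes, and bars that would run below 0 end at the axis. The GC box separated the members (3.59%) from coding promoters (12.8%), and CTCF matches were at 10.9%, between 6.78% and 12.9%.

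Ordered by mismatches and then by width, the members with an OCT4::SOX2 match began with Gm5353, a processed pseudogene (chr8:76862764-76863553, 790 bp, no mismatch), Rmst (chr10:92163386-92163537, 152 bp, 1 mismatch) and Gm43559, a processed pseudogene (chr3:134272406-134272604, 199 bp), the narrowest of 16 members with 2 mismatches. Rmst is a long non-coding RNA gene of the nervous system. The matches are printed in capitals with 20 bases on either side, on the strand of the motif, to show how they differ. Mismatches are to the motif and not between these sequences: at positions 9 and 14, counted from 1 at its 5′ end, the motif accepts 2 letters, and neither counts as a mismatch.
Gm5353: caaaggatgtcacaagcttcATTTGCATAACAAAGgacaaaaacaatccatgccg
Rmst: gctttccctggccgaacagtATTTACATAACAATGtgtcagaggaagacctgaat
Gm43559: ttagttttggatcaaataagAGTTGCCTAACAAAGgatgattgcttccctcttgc
These windows are chr8:76863258-76863312 (minus strand), chr10:92163368-92163422 (plus strand) and chr3:134272548-134272602 (plus strand). The next in width among those with 2 mismatches were at Gm18409, a transcribed processed pseudogene (212 bp), and at Ighv1-14, an immunoglobulin pseudogene (225 bp). Of the 18 matches, 6 were at lincRNA genes (29.3% of all members) and 3 at TEC genes (7.80%). There were 2 each at IG_V_gene segments (1.66% of all members), IG_V_pseudogene segments (0.877%) and processed pseudogenes (22.1%). A transcribed_processed_pseudogene, an antisense and a miRNA gene had 1 each, and no test was run on these counts.

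Members were spread over the autosomes with 1 exception. They were between 3.03% and 4.95% of all peaks on 18 autosomes, and 6.77% (339 of 5006) on chromosome 12. There, 112 members (33.0%) lay at segments of the immunoglobulin heavy chain locus, chr12:113254830-116010093, which B cells rearrange to make antibodies. The locus held 355 peaks of any class, or 12.9 per 100 kb, against 4.17 per 100 kb on chromosome 12 as a whole and 4.54 over all autosomes. Of its 113 V genes, 62 had a peak centre within 1 kb of a TSS (54.9%). In the kappa light chain locus on chromosome 6, 1 of 102 V genes had one (0.980%) and there were 2.46 peaks per 100 kb, and in the T cell receptor alpha and delta locus 6 of 115 did (5.22%). In the T cell receptor beta locus 4 of 22 V genes did (18.2%), and there were 1.95 peaks per 100 kb. The heavy chain locus was singled out after seeing the counts, so no test was run. The list holds no read counts, so the density counts regions and not signal, and the copy number and mapping of this locus in these cells were not tested.

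Heavy chain members were 177 to 1632 bp wide (median 400.5 bp), and none was CpG-rich. Of the 71 nearest to a V gene, 40 had their centre within 200 bp of the annotated 3′ end of the gene and 16 within 200 bp of the TSS, in genes with a median length of 455 bp. The 3′ end of a V gene is joined to the recombination signal, and the heptamer CACAGTG was in the central window of 30 of these 71 peaks (42.3%), against 352 of 4261 other members (8.26%) and 8200 of 88432 distal peaks (9.27%). These 71 peaks were picked by lying near V genes, so the comparison describes their position and was not tested. CTCF matches were in 21 of the 112 heavy chain members (18.8%) and 452 of the 4220 others (10.7%). The peak at Ighv5-17, printed above, was 182 bp wide with its centre 540 bp downstream of the TSS, and held a CTCF match without mismatch.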

How the data were processed

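The authors aligned ATAC-seq reads to GRCm38 with STAR 2.6.1c, removed duplicates with Picard, called peaks with MACS2 2.1.1.20160309 and combined overlapping peaks from all experiments on OCT4-AID cells given dox with bedtools. Whether peaks were called per library or on pooled reads was not given in the sources used here. The deposited list gives chromosome, start and end of 113737 regions and no score or count per region. The study's methods describe the removal of regions over 5 kb, but 11 remained in the list. The merging keeps a region called in any experiment, and how width or presence relates to depth was not tested.

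TSSs were those of all GENCODE M21 transcripts, sequence and repeat masking those of RefSeq GRCm38.p6, and positions are 1-based. Each peak was assigned to its nearest non-coding TSS. Values were summarised per autosome, and differences were tested by a two-sided sign-flip permutation over the 19 autosomes with 100000 resamples and Benjamini-Hochberg adjustment within families of 11, 10, 24 and 12 tests (threshold 0.05), using Python 3.11.15, NumPy 2.4.6 and SciPy 1.17.1. Autosomes stand in for replicates, so p-values describe the spread along 1 genome and not between cultures. The test and the motif search were tested on simulated data. Members and gene lists were chosen with earlier results of these data known. Genes were named by fixed rules: the 2 widest members of the 6 largest types, the gene lists, the peaks nearest to the 1 kb limit, the closest OCT4::SOX2 matches, miRNA genes and the genes with most peaks. The heavy chain locus and the comparison of CpG-rich starts were added after seeing the data. Differential accessibility between groups was not analysed here.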

Additional observations from a re-analysis of the deposited data

Results flagged for a closer look

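Peaks on chromosome X stood outside all comparisons above. On it, 86 of 1952 peaks (4.41%) met the same distance rule, against 3.88% of autosomal peaks, and their median width was 628.5 bp. They are given because no comparison used this chromosome. The difference in share was not tested, and the list holds no values per sample, so the control libraries merged into it could not be set beside them.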

How the results depend on the processing

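The 57 tested values were recomputed under 14 alternatives, of which the one without immunoglobulin and T cell receptor segments was chosen after seeing the data, and 498 of 545 recomputed values kept their direction and their side of the threshold. The number of members was 3043 with a TSS distance of 500 bp, 6536 with 2000 bp and 2131 at long non-coding RNA genes only. Width, GC content, CpG-rich share and repeat share against coding promoter and distal peaks kept direction and call under every alternative run for them. Distance to the nearest other peak did not: with means per chromosome the difference was 377 bp from coding promoters and -343 bp from distal peaks (no longer past the threshold), and 8.16 bp from distal peaks beyond 5 kb from coding TSSs. Differences that changed sign in gene shares were 0.344 percentage points for miRNA (2000 bp) and -0.585 for snoRNA (peak covering a TSS base). Among gene types and motifs, sign changes were repeat share of TEC 0.465 (500 bp), CpG-rich share of lincRNA 0.693 (2000 bp), of processed pseudogenes -0.351 (2000 bp) and -2.45 (5′ end only) and of antisense -0.205 (beyond 5 kb), KLF4 0.217 against distal and NFY 0.0410 against coding promoter peaks (long non-coding RNA genes only), KLF4 -0.159 against coding promoter peaks (500-base window), and CTCF -1.85 and 0.925 (1 mismatch more); the cause was not tested. Sign changes included, 13 recomputed values fell short of a threshold that the result had passed, and 23 passed one that it had not. Among the latter, YY1 against distal peaks passed at 2000 bp and at long non-coding RNA genes only, OCT4::SOX2 against coding promoter peaks at 2000 bp, with the 5′ end only, in 500-base windows and with 1 mismatch more, and against distal peaks with the 5′ end only, without peaks under 200 bp and without receptor segments, the width of antisense peaks at 2000 bp and with the 5′ end only, and the repeat share of TEC peaks at 2000 bp. Annotation levels 1 and 2 gave no value for gene shares of miRNA, misc_RNA, snRNA and snoRNA genes, of which too few have such a level. The list carries no depth or score, so weak and strong peaks count alike. No paired analysis was possible because the list holds no values per sample, and for the same reason no replicate could be left out.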
